A study of Mus musculus with 2 samples.

Results

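Alveolar type 2 (AT2) cells of the mouse lung that were high in Lcn2 and Il33 are described here, from single-cell RNA sequencing of whole lung. A cell was a member when at most 10% of its UMIs (unique molecular identifiers, 1 per captured transcript) lay on mitochondrial genes, and when its raw UMIs of Lamp3, Slc34a2, Abca3 and Etv5 summed to at least 4. It also had no UMI of Ptprc or Pecam1, fewer than 3 of the ciliated-cell genes Foxj1, Ccdc153, Tmem212 and Dynlrb2 detected, and less than 2% of its UMIs on Scgb1a1. These conditions gated 2386 AT2 cells. The members were then chosen by measured values of 2 genes: the 679 gated cells with at least 0.2% of their UMIs on Lcn2 and Il33 together were the high cells, out of 15453 deposited cells. The other 1707 gated cells, under 0.2%, were the low cells and served as the comparison.

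AT2 cells are the cuboidal cells of the alveolus that make, store and secrete surfactant, the lipid and protein film that keeps the air spaces open, and they are the progenitors of the flat AT1 cells that carry gas exchange. They also serve in defence: they secrete collectins and lysozyme, carry MHC class II, and make acute phase proteins when the lung is injured. Lcn2 encodes lipocalin 2, a secreted protein that withholds iron from bacteria by binding their siderophores. Il33 encodes a nuclear cytokine of the interleukin 1 family that acts as an alarm signal when cells are damaged and that drives type 2 responses through its receptor on innate lymphoid and other immune cells.

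The series has 2 libraries, labelled control and fibrosis, each from the whole lung of 1 male C57Bl/6J mouse aged 3 months. Per the labels, mice received 100 µg of TiO2, a particle that served as the control, or of crocidolite asbestos, a fibre that scars the lung, into the trachea, and lungs were taken on day 14. Each sample's label lists both particles and leaves its own unnamed, so the libraries are named as labelled. Neither mouse is described as carrying a transgene. Lungs were perfused and digested with dispase and DNase I, red cells were lysed, and droplet libraries were made with 10x Genomics 3' V2 chemistry without a sort for AT2 cells. With 1 library per group no difference between the libraries has a replicate check. No test is given, and the 95% intervals cover only the error of counting.

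The control library held 36632591 UMIs in 8280 cells and the fibrosis library 38090308 UMIs in 7173 cells. The high cells numbered 92 in the control library, with 657075 UMIs in all, and 587 in the fibrosis library, with 3852840 UMIs. The low cells numbered 815 and 892, with 4904131 and 4849545 UMIs. The high cells were the deeper ones: their median UMI count was 7125 (control) and 6049 (fibrosis), against 5603 and 5032 for low cells. The libraries shared 89 cell barcodes, of which 0 belonged to control and 6 to fibrosis high cells. Doublets were not removed in the values given here.

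The rule fixed the level of Lcn2 and Il33, so these values only describe the members. Levels are in CPM (the gene's UMIs over a group of cells scaled to a common total). Lcn2 stood at 2493 in high and 539 in low cells of the control library, and at 3552 and 740 in the fibrosis library. B cells, which should lack it, held 26.4 and 27.2 CPM. Il33 stood at 825 and 248 CPM in the control library and at 751 and 266 in the fibrosis library, with 5.08 and 8.50 CPM in B cells. Membership rested mostly on Lcn2. By Lcn2 alone 48 of the 92 control and 400 of the 587 fibrosis high cells reached 0.2%, by Il33 alone 5 and 30, by each of the genes 5 and 19, and by the sum only 34 and 138. An Il33 UMI was found in 83 control and 520 fibrosis high cells, so 9 and 67 members had none. The class is the upper range of a continuous share and not a separate cell type: 33 control and 119 fibrosis members lay just inside the cut, at 0.2 to 0.25%, and 86 and 208 low cells just outside it, at 0.15 to 0.2%. At 0.4% or more were 15 control (16.3%) and 233 fibrosis high cells (39.7%).

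**Figure D1:**
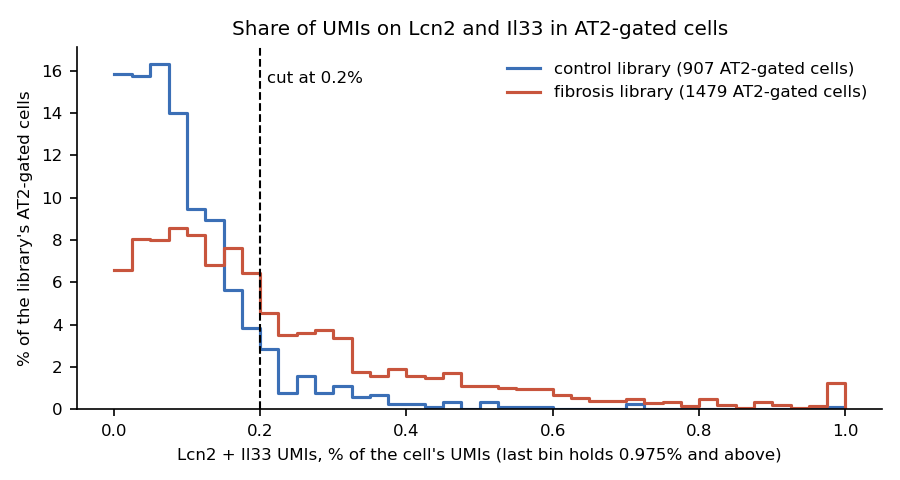
Share of the AT2-gated cells of each library (vertical axis, %) by the cell's own share of UMIs on Lcn2 and Il33 (horizontal axis, %), with 907 control and 1479 fibrosis cells and the cut at 0.2% dashed. The distribution has no gap at the cut, and the fibrosis library reaches further to the right, with 40 cells at 0.8% or more against 1 in the control library.

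The rule itself uses Lamp3 and Slc34a2, sets Ptprc and Pecam1 to 0 and caps Scgb1a1, so the values of these genes only describe the members. Among high cells Lamp3, which encodes a protein of lamellar bodies, was detected in 92 of 92 control and 583 of 587 fibrosis cells. Its level was 1749 CPM in high against 1453 in low cells of the control library, and 1369 against 1385 in the fibrosis library. Slc34a2, the phosphate transporter of AT2 cells, stood at 3962 against 4102 CPM and at 4628 against 4704. The label AT2 is read from Sftpc, the surfactant gene that defines AT2 cells, which the rule did not use. It was found in every member, but also in 96.8% of control and 99.2% of fibrosis B cells, so the level and not the detection carries the label. Sftpc stood at 214341 CPM in control and 187350 CPM in fibrosis high cells, against 1878 CPM in control B cells. Markers of other types were low and on the whole no higher in high than in low cells. The 14 other haematopoietic markers, Ptprc among them, summed to 358 against 402 CPM in the control and 362 against 394 CPM in the fibrosis library. Of these markers 2 and 1 were at 0 in high cells, Ptprc by the rule. The 10 alveolar macrophage markers summed to 80.7 against 101 CPM and 281 against 455 CPM. The 8 endothelial markers, with Pecam1 set to 0 by the rule, summed to 44.1 against 52.2 CPM and 49.1 against 51.6 CPM. The 8 fibroblast markers summed to 73.1 against 182 CPM and 92.4 against 111 CPM, and the 10 club cell markers, almost all of it Scgb1a1, to 4205 against 4134 CPM and 3018 against 3128 CPM. Over cells the median sum was 0 for alveolar macrophage markers in the control library and for endothelial and fibroblast markers in both.

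Neutrophil transcripts were the exception, and a few cells held most of them. The 8 neutrophil markers summed to 3121 CPM in high against 865 CPM in low cells of the control library and to 1068 against 408 CPM in the fibrosis library. The median cell showed the opposite order, at 353 against 417 CPM and 232 against 239 CPM. Only 4 of the 92 control and 10 of the 587 fibrosis high cells had 10 or more neutrophil-marker UMIs, and these held 88.5% and 75.7% of all neutrophil-marker UMIs of the high cells. In low cells there were 7 and 3 such cells, with 49.2% and 33.0%. Neutrophils of the same libraries held 3184 and 2239 CPM of Lcn2. Without these cells Lcn2 stayed at 2493 CPM in control and 3539 CPM in fibrosis high cells. The leading results they touch are given with and without them.

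High cells were more frequent in the fibrosis library. They made up 92 of 907 AT2-gated cells, 10.1% (95% Clopper-Pearson interval 8.26 to 12.3%), in the control library and 587 of 1479, 39.7% (37.2 to 42.2%), in the fibrosis library, a difference of 29.5 percentage points. Of all cells that passed the mitochondrial limit they were 1.15% and 8.45%. The AT2 gate itself held 11.3% of 8026 such cells in the control and 21.3% of 6945 in the fibrosis library. The order of the libraries was kept at other cuts: 38.0% against 68.8% at 0.1%, and 1.65% against 15.8% at 0.4%. When every cell was first thinned to 2000 UMIs, which removes the gap in depth, the shares were 16.4% and 47.5%. Thinning also changed which cells passed the gate, with 162 high and 825 low control cells and 791 high and 874 low fibrosis cells. The rule fixes these counts, and 1 digest per group lies behind each of them.

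Within each library, the genes that set high cells apart from low cells at 2-fold or more in both were few. Of 9427 genes with at least 20 UMIs in each library, the rule genes left out, 20 were called 2-fold higher in both (0.212%) and 22 called 2-fold lower (0.233%), by a log2 ratio with 0.5 UMI added to each sum. Of the 22 lower genes 6 had 0 UMIs in control high cells, and 5 of these 6 do not reach 2-fold at the bound that a count of 0 allows, which leaves 17. Within the control library alone, where the high cells were few, 235 genes (2.49%) were 2-fold higher and 626 (6.64%) lower, and within the fibrosis library 45 (0.477%) and 113 (1.2%). Over all genes, the log2 ratio of high over low cells had a median of -0.05 (control) and -0.10 (fibrosis). By the other call, an interval clear of equality in both libraries, 156 genes (1.65%) were higher and 237 (2.51%) lower. Of the 20 higher genes 16 passed that call too, and of the 22 lower genes 3.

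The higher genes were of several kinds, with acute phase, epithelial and neutrophil genes among them. Fgg, which encodes the gamma chain of fibrinogen, the clotting protein of plasma, was at 21.3 CPM (14 UMIs, in 5 cells) in control high and 1.84 CPM (9 UMIs) in control low cells. It was at 27.8 CPM (107 UMIs, in 46 cells) and 4.33 CPM (21 UMIs) in the fibrosis library. The log2 ratio was 3.51 (2.23 to 4.93) and 2.65 (2.00 to 3.43). These intervals take UMIs as independent, but 9 of the 14 control UMIs lay in 1 cell, and up to 13 in 1 fibrosis cell. Without that cell of each library, an alternative chosen after seeing the data, the log2 ratio was 2.13 (0.15 to 3.81) from 5 UMIs and 2.47 (1.80 to 3.26) from 94. Fgg was a gene of few cells, in 5.43% of control and 7.84% of fibrosis high cells against 0.98% and 1.68% of low cells, and no B cell held a UMI of it. Lrg1, which encodes leucine-rich alpha-2-glycoprotein, an acute phase protein, was broad: 72 of 92 control and 485 of 587 fibrosis high cells had it. Its level was 1003 against 243 CPM in the control and 1097 against 368 CPM in the fibrosis library, log2 ratios of 2.05 (1.91 to 2.19) and 1.58 (1.50 to 1.66). At 2000 UMIs per cell the share of cells with Lrg1 was 60.4% of high and 26.2% of low control cells, 64.8% and 36.3% in the fibrosis library, and 1.32% and 2.51% of B cells.

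Pigr, the receptor that carries polymeric immunoglobulin across epithelia, stood at 13.7 against 3.47 CPM in the control and 27.8 against 9.90 CPM in the fibrosis library. Slpi, a secreted inhibitor of leukocyte proteases, stood at 172 against 77.1 and 270 against 113 CPM. Without the neutrophil-rich cells its values were 130 against 71.4 and 259 against 112 CPM, which fell short of 2-fold in the control library. Ly6i, a member of the Ly6 family of surface proteins, stood at 16.7 against 5.51 and 104 against 25.2 CPM. Dmkn, which encodes the secreted epithelial protein dermokine, stood at 41.1 against 14.5 and 64.9 against 19.0 CPM, and ciliated cells held more of it, 522 and 485 CPM. Slc16a6, of the monocarboxylate transporter family, stood at 18.3 against 5.10 and 13.5 against 5.16 CPM. Split by Il33 alone, the direction turned for Pigr (-0.20) and Dmkn (-0.095) in the control library and for Ly6i in both (-0.20 and -0.64), and at a cut of 0.4% for Pigr in the control library (-0.30).

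S100a8 and S100a9, which encode the subunits of calprotectin and are abundant in neutrophils, Retnlg, Csf3r and Cxcr2 also passed 2-fold in both libraries. S100a8 stood at 1740 against 434 CPM in the control and 575 against 210 CPM in the fibrosis library, and Retnlg at 196 against 48.9 and 59.7 against 19.4 CPM. Without the cells with 10 or more neutrophil-marker UMIs, S100a8 stood at 200 against 223 and 134 against 143 CPM, under the 431 and 265 CPM of B cells, and Retnlg at 19.2 against 26.2 and 14.3 against 14.3 CPM. Of the 20 higher genes 12 were called without those cells: Csf3r, Cxcr2, Itga7, Nutf2, Retnlg, S100a8, S100a9 and Slpi were lost. Itga7, then at log2 1.40 and 0.98, and Nutf2, at 0.77 and 1.33, stayed higher in both. Itga7 fell short of 2-fold in the fibrosis and Nutf2 in the control library. Of the 22 lower genes 18 were shared with the 23 called without them. The remaining higher genes were Cited4, Itm2a, Fam120aos, Ly6k and 3930402G23Rik, with 5 to 9 UMIs each in control high cells.

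**Figure D2:**
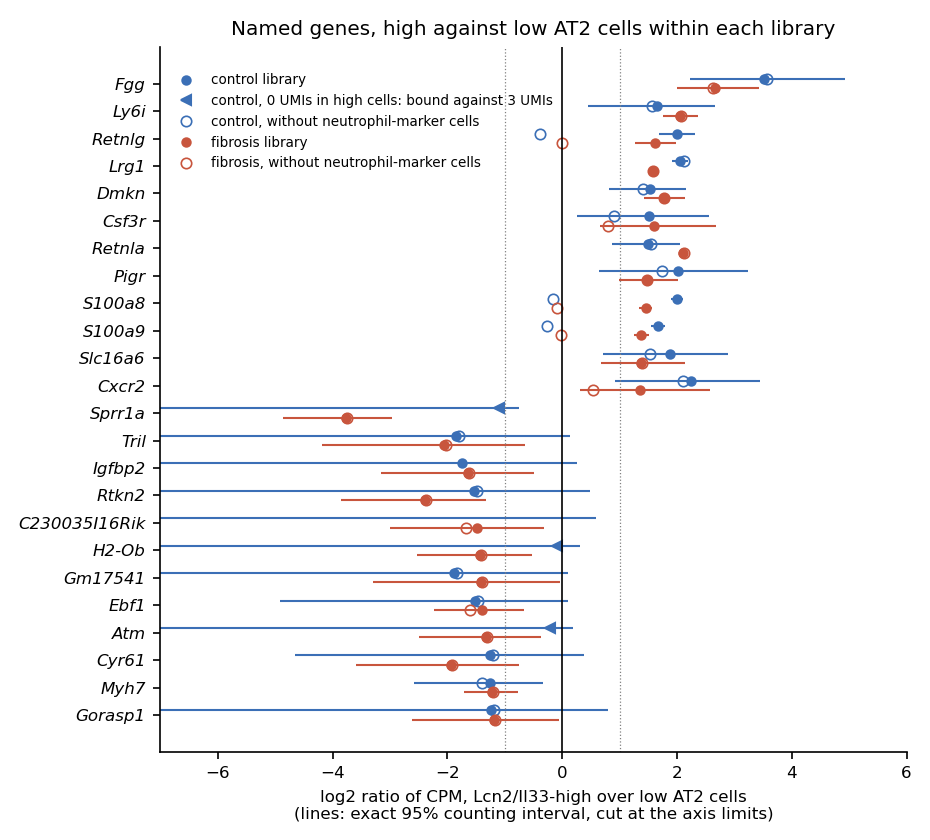
Log2 ratio of CPM in high over low AT2 cells (horizontal axis) for the 12 leading genes in each direction (vertical axis), in the control and the fibrosis library. Lines are exact 95% counting intervals, triangles are bounds for genes at 0 UMIs in control high cells, and open circles leave out cells with 10 or more neutrophil-marker UMIs: Lrg1 keeps its place there, and S100a8 moves from 2.00 to -0.15 in the control library.

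The reference holds promoters of the defining genes and of the leading genes Fgg, Retnlg and Lrg1, but none for Ly6i, and these are shown as the sequence next to the starts of the genes that the rule used or that led the ratio of high over low cells. The lead of Retnlg rested on the neutrophil-rich cells. Retnla, treated below, was added after its values had been seen. The 250 bases before each gene's start were taken from RefSeq (GRCm38.p6), 5' to 3' on the gene's own strand. They were searched on both strands for a STAT motif (TTCNNNGAA), a STAT6-type motif with a longer spacer (TTCNNNNGAA), a C/EBP motif (TTGCNNAA) and the kappa-B consensus. Capitals mark the matches, and no match overlapped another motif. Of 32851 promoter windows of this length, 7.02% held the STAT motif, 5.85% the STAT6-type motif, 9.56% the C/EBP motif and 3.90% the kappa-B consensus. Lcn2 (chr2:32387740-32387989, minus strand) held a STAT6-type match at -156 to -147 and a C/EBP match at -216 to -209.
Lcn2: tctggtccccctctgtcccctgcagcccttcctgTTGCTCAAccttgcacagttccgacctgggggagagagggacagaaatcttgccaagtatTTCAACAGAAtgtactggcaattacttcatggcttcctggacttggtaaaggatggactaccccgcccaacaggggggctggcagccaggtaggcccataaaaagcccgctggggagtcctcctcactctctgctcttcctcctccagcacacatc
Il33 has a pair of annotated starts. The window of the upstream start (chr19:29924863-29925112, plus strand) held a STAT6-type match at -36 to -27, and that of the downstream start (chr19:29945540-29945789) a C/EBP match at -85 to -78.
Il33 upstream start: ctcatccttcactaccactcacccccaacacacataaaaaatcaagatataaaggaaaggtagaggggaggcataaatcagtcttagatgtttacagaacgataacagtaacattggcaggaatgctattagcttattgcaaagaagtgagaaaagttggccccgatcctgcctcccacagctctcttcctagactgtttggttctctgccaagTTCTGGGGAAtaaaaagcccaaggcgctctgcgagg
Il33 downstream start: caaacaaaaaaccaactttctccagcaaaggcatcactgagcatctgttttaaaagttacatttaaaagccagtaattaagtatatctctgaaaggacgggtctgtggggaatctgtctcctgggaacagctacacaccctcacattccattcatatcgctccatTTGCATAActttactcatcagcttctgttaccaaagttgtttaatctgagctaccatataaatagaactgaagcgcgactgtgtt
Fgg (chr3:83007474-83007723, plus strand) and Lrg1 (chr17:56121947-56122196, minus strand) held none of the 4 motifs, which says only that these letters are not in the windows.
Fgg: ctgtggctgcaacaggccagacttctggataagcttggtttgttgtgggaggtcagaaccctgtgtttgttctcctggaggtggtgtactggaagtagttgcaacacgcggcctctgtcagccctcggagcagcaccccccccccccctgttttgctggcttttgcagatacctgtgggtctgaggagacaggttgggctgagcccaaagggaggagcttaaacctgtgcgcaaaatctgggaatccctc
Lrg1: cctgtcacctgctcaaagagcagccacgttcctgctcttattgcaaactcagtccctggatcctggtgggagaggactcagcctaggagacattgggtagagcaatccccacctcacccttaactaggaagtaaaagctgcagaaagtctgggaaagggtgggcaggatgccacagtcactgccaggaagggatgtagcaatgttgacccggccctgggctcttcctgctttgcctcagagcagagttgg
Retnlg (chr16:48872358-48872607, plus strand) and its relative Retnla (chr16:48842359-48842608, plus strand) each held a STAT6-type and a C/EBP match, in Retnlg at -72 to -63 and -246 to -239 and in Retnla at -145 to -136 and -134 to -127.
Retnlg: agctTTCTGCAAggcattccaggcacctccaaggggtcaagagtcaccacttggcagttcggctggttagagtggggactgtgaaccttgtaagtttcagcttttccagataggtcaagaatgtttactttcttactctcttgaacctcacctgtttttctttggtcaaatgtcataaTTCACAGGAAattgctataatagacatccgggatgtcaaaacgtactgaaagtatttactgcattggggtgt
Retnla: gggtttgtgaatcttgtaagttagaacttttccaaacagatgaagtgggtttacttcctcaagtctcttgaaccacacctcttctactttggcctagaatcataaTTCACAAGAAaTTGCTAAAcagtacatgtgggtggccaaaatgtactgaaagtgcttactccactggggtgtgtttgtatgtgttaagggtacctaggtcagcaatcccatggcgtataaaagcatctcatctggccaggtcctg
A match describes letters and is neither a bound site nor a cause.

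The lower genes were sparse. Of the 22, 21 had at most 5 UMIs and 6 had 0 UMIs in the control high cells, where the limit that a count of 0 allows is 4.57 CPM. Sprr1a, a small proline-rich protein of the cell envelope that is induced in injured epithelium, had 0 UMIs in control high against 48 in control low cells, at least 2.14-fold lower. In the fibrosis library it had 11 UMIs against 197, log2 -3.77 (-4.86 to -2.96). All its UMIs in high cells lay in 1 fibrosis cell, and those of low cells in 5 control and 12 fibrosis cells, and control AT1 cells held 745 CPM. The bound and the interval take UMIs as independent, but 45 of the 48 control UMIs lay in 2 low cells and 193 of the 197 fibrosis UMIs in 9. By cells, 0 of 92 control high cells allows up to 3.93%, against 0.61% of control low cells, so the share of cells shows no difference there. Myh7, the heavy chain of slow muscle myosin, was the broadest of the lower genes, at 12.2 against 31.0 CPM in the control and 13.5 against 31.5 CPM in the fibrosis library, log2 -1.27 (-2.59 to -0.33) and -1.22 (-1.71 to -0.76). Pxdc1 was the other gene with intervals clear of equality in both, at 3.04 against 11.8 and 6.23 against 14.4 CPM, log2 -1.65 (-5.04 to -0.04) in the control library from 2 UMIs. Axin2, a feedback target of Wnt signalling that marks an AT2 subset with progenitor activity, stood at 6.09 against 15.7 CPM (4 UMIs in control high cells) and 7.53 against 17.1 CPM. Rtkn2, an AT1 marker, stood at 1.52 against 6.53 and 1.82 against 10.1 CPM, and Cyr61, a matricellular protein, at 3.04 against 8.97 and 1.56 against 6.39 CPM, with 1 and 2 UMIs in control high cells. Their control log2 ratios were -1.54 (-7.45 to 0.48) for Rtkn2 and -1.25 (-4.65 to 0.38) for Cyr61, intervals that include equality. The B-cell genes Ebf1 and H2-Ob were among the lower genes as well, at 2 and 0 UMIs in control high cells, and H2-Ob was at least 1.07-fold lower there.

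Gene lists of AT2 and injury biology are described by their counts and medians, beside the -0.05 and -0.10 of all genes. The acute phase and antibacterial list stood out in level. Of 20 genes 12 were measured, the median log2 ratio was 1.01 (control) and 0.87 (fibrosis), and 5 of the 12 (Lrg1, Slpi, S100a8, S100a9 and Pigr) were 2-fold higher in both, against 0.212% of all genes. With intervals clear of equality in both libraries were 9 of the 12, against 1.65% of all genes. Among these were Itih4, which encodes an acute phase protein of the inter-alpha-trypsin inhibitor family, at 368 against 121 CPM in the control and 303 against 173 CPM in the fibrosis library, and Hp, which encodes the haemoglobin scavenger haptoglobin, at 1053 against 599 and 1071 against 669 CPM. Lbp, the lipopolysaccharide binding protein, stood at 95.9 against 53.4 and 94.7 against 64.1 CPM. Lyz1 went the other way in the fibrosis library, with a log2 ratio of -0.47. Without the neutrophil-rich cells the medians were 0.69 and 0.62, 2 of the 12 (Lrg1 and Pigr) were 2-fold higher in both, and 7 were higher with intervals clear of equality in both. Split by Il33 alone the medians were 0.18 and 0.38. Members of this list were known from earlier results of these data, and Lcn2 itself is a gene of the same kind. It is therefore no independent evidence of a direction.

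The surfactant machinery did not differ by much. The 13 measured genes had medians of 0.13 and 0.16, none was 2-fold higher in either library, and 8 had intervals clear of equality on the higher side in both. Sftpd, the collectin surfactant protein D, stood at 5209 against 3889 CPM in the control and 5946 against 4089 CPM in the fibrosis library, log2 0.42 and 0.54. Lyz2, the lysozyme of AT2 cells and macrophages, differed by 0.21 and 0.32, and Sftpc by 0.11 and 0.21. Lpcat1, which makes the saturated phosphatidylcholine of surfactant, was on the lower side, at -0.16 and -0.10. These directions held for the list's median when the libraries were scaled by the median ratio or without the 50 largest genes. They did not hold in every alternative: the medians ran from -0.08 to 0.22 in the control and from -0.04 to 0.30 in the fibrosis library.

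The lipid and cholesterol synthesis genes, 19 measured, had medians of 0.16 and -0.02, and 6 were higher with intervals clear of equality in both libraries. Fdps, a step of the mevalonate pathway, differed by 0.80 and 0.47, and Scd1, the stearoyl desaturase, by 0.55 and 0.19. The 12 regulators of AT2 identity had medians of -0.11 and -0.14. Cebpa, a transcription factor of AT2 cells, differed by -0.28 and -0.33 and Cd36, a fatty acid transporter, by -0.20 and -0.30, while the mucin gene Muc1 was higher, by 0.62 and 0.29. Nkx2-1, the lung lineage factor, differed by -0.04 and -0.11.

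Genes of the transitional state between AT2 and AT1 cells lay on the lower side in high cells. The 18 measured genes had medians of -0.38 and -0.34, none was 2-fold higher in both, and 5 had intervals clear of equality on the lower side in both, against 2.51% of all genes. Krt8, the keratin by which this state is known, stood at 97.4 against 127 CPM in the control and 96.6 against 122 CPM in the fibrosis library. Krt18, its partner, differed by -1.01 and -0.65 and Hopx, also an AT1 gene, by -1.30 and -0.87. The 12 measured AT1 markers had a median of -0.58 in the control library, with the gene at 0 UMIs entered at its bound, and -0.39 in the fibrosis library. Without the cells that held 20 or more UMIs of Ager, Rtkn2, Akap5 and Clic5 the control median was 0.00. Ager, the receptor for glycation end products and the main AT1 transcript, hardly differed at all: 1056 against 1039 CPM and 1164 against 1182 CPM.

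Of the 6 measured interferon response genes, Isg15, a ubiquitin-like interferon product, differed by 2.36 in the control (25.9 against 5.10 CPM) and 0.70 in the fibrosis library, and Ifi27l2a by 0.72 and 0.43. The list's medians were 0.61 and 0.42, and 2 of the 6 were higher with intervals clear of equality in both libraries. Without the neutrophil-rich cells 0 were, and the medians were 0.59 and 0.32. At a cut of 0.1% the control median was -0.03. The 14 genes of antigen presentation had medians of 0.10 and 0.15, and the MHC class I genes H2-K1, H2-D1 and B2m and the class II invariant chain Cd74 were higher in both, B2m by 0.26 and 0.41. The 16 NF-kB and STAT3 feedback genes stayed near all genes, with medians of 0.08 in each library. Cd14, the lipopolysaccharide co-receptor, was the largest of them in the fibrosis library, at 103 against 43.7 CPM there and 42.6 against 23.7 CPM in the control library, and Socs3, the STAT3 feedback inhibitor, differed by 0.77 and 0.40. Without the neutrophil-rich cells Cd14 was the only gene of this list that was higher with intervals clear of equality in both libraries.

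The other lists are described by members with intervals clear of equality in both libraries. Of 14 unfolded protein response genes, Hspa5, Hsp90b1, Calr and Manf, the chaperones of the endoplasmic reticulum, were higher, Hspa5 by 0.54 and 0.32. Of 20 antioxidant genes, Gclc, the rate-limiting enzyme of glutathione synthesis, Mt1 and Mt2, the metal-binding metallothioneins, were higher, Gclc by 0.80 and 0.42 and Mt2 by 1.19 and 0.47, and Cbr2 and Ces1d were lower. Of 14 immediate early genes, Jun was lower, by -0.94 and -0.66. Of 11 ion transport and mucous genes, the mucin Muc4 was higher, by 1.27 and 0.83, as was the sodium pump subunit Atp1b1, by 0.14 and 0.10, and the chloride cotransporter Slc12a2 and Lgals3, which encodes galectin 3, were lower. Of 17 growth factor, TGF-beta and Wnt genes, Bambi, a pseudoreceptor that dampens TGF-beta signals, was lower, by -0.83 and -0.55. Cxcl17, a mucosal chemokine, was higher by 1.46 and 0.93, at 88.3 against 32.2 and 79.9 against 42.1 CPM. The glycolytic enzyme gene Gapdh was higher by 0.39 and 0.14. Of the cyclins, Ccnd1 was higher, by 0.39 and 0.32, and Ccnd2 lower, by -0.80 and -0.80. Timp3, an inhibitor of matrix metalloproteinases, was lower, by -1.68 and -0.81. Only 4 of the 21 chemokines and cytokines had enough UMIs in both libraries. Without the neutrophil-rich cells the intervals of Mt1, Atp1b1 and Gapdh were no longer clear of equality in both libraries. Those of the other higher genes named in this paragraph stayed clear.

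**Figure D3:**
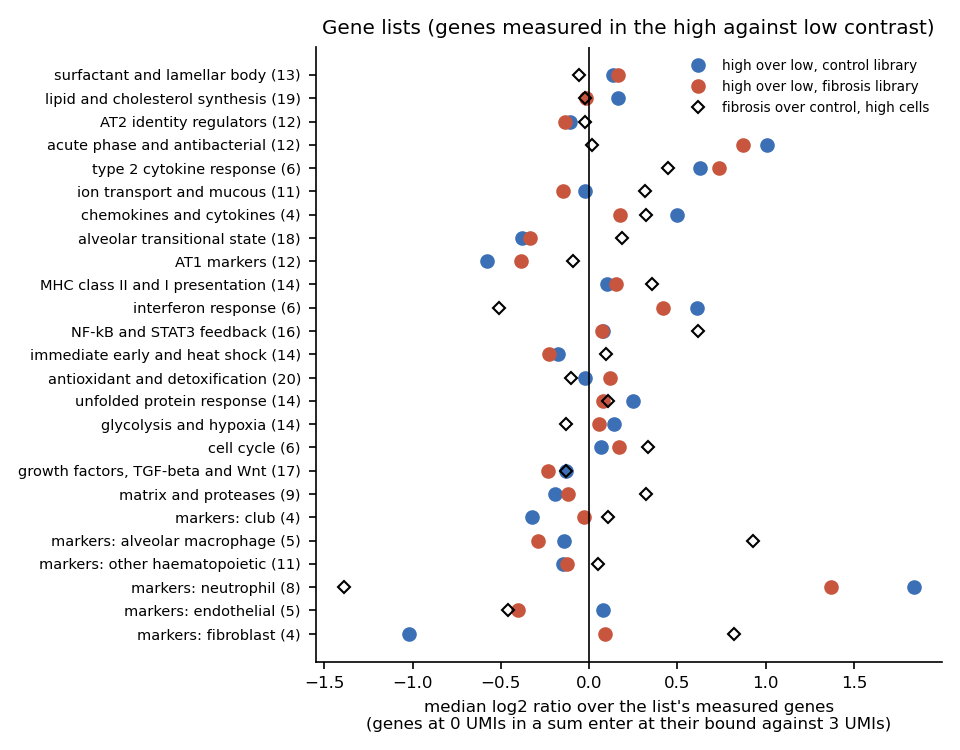
Median log2 ratio (horizontal axis) over the measured genes of each list (vertical axis, number of genes in brackets) for high over low cells in the control and the fibrosis library, and for fibrosis over control in high cells. The acute phase list lies at 1.01 and 0.87 and the neutrophil markers further right, and the transitional and AT1 lists lie left of 0.

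The level of several genes followed the share of Lcn2 and Il33 over the whole range of AT2-gated cells, so that the cut at 0.2% is not where they begin. Lrg1 went from 111 CPM in the 216 fibrosis cells under 0.05% to 1198 CPM in the 40 cells at 0.8% or more, and from 108 CPM in 287 control cells to 1681 CPM in the 14 control cells at 0.4 to 0.8%. Chil1, a chitinase-like secreted protein, went from 1549 to 7364 CPM in the fibrosis library and from 1559 to 4021 CPM in the control library. Sftpd went from 4017 to 8888 CPM and from 3838 to 7864 CPM. In the fibrosis library Retnla went from 433 to 6620 CPM, Ly6i from 22.3 to 343 CPM, Slc26a4 from 33.9 to 241 CPM, Cd14 from 32.2 to 306 CPM and Lyz2 from 23693 to 41467 CPM. Myh7 was highest in cells under 0.05%, at 50.01 CPM, and stood at 20.4 CPM in cells at 0.8% or more. Bins at the ends rest on few cells, and the same cells give each bin its Lcn2 share and its other levels.

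**Figure D4:**
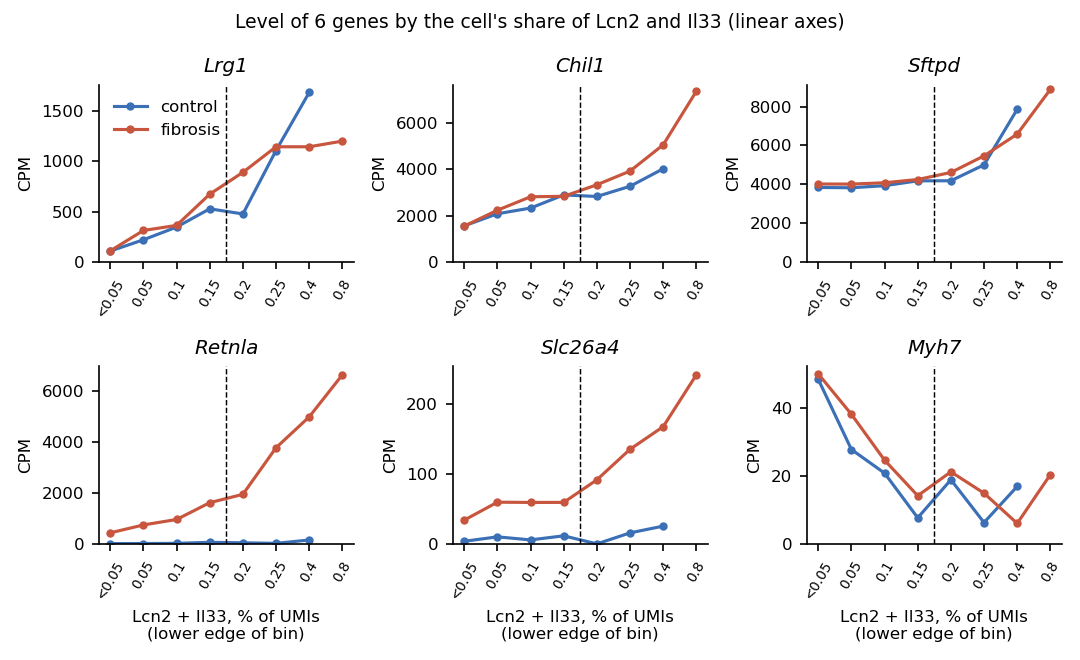
CPM of 6 genes (vertical axes, linear) in AT2-gated cells binned by their share of Lcn2 and Il33 (horizontal axes, lower edge of each bin in % of UMIs), for the control and the fibrosis library, with bins under 10 cells left out and the cut dashed. Lrg1, Chil1 and Sftpd are highest in the bins furthest right in both libraries, Retnla and Slc26a4 stand far higher in the fibrosis library, and Myh7 is highest in the bin furthest left.

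Members reached the cut through Lcn2 or through Il33, and other genes split along the same line. This split, at 0.1% of UMIs on Il33, was chosen after its values had been seen. In the fibrosis library 155 high cells were at or above it and 432 below, in the control library 27 and 65. Fgg stood at 70.8 CPM (54.5 to 90.4) in the Il33-rich and 14.6 CPM (10.6 to 19.6) in the other fibrosis members. In the control library 13 of its 14 UMIs lay in Il33-rich cells, at 68.4 (36.4 to 117) against 2.14 CPM (0.0542 to 11.9). Retnla stood at 7139 against 3093 CPM in the fibrosis and 105 against 32.1 CPM in the control library, and Lrg1 at 1343 against 1021 and 1485 against 807 CPM. The opposite order was seen for Ly6i, at 28.8 against 128 CPM in fibrosis members, and for Cxcl5, which encodes a chemokine for neutrophils, at 0 CPM (0 to 4.08) against 30.9 CPM. In the 67 fibrosis members with no Il33 UMI, Cxcl5 stood at 106 CPM, Ly6i at 187 CPM, Lrg1 at 535 CPM and Retnla at 838 CPM. Members poor in Il33 are rich in Lcn2 by construction of the rule, and 9 of the 14 control Fgg UMIs lay in 1 cell.

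Type 2 response genes were few but included the gene that led the comparison of the libraries. Retnla encodes RELM-alpha, a secreted protein that interleukins 4 and 13 induce in lung epithelium and macrophages. It stood at 53.3 CPM in control high, 19.2 in control low, 4042 in fibrosis high and 940 in fibrosis low cells, so that the fibrosis values lay above both control values. The log2 ratio of high over low cells was 1.49 (0.87 to 2.05) and 2.10 (2.06 to 2.15). Fibrosis B cells held 174 CPM, and at 2000 UMIs per cell 27.0% of them had a Retnla UMI against 29.4% of low and 49.6% of high AT2 cells, so the share in low cells was close to background. Of the 6 measured type 2 genes Chil1 was also higher, at 3275 against 2047 and 4459 against 2369 CPM. Chia1, which encodes acidic mammalian chitinase, went opposite ways, at 148 against 204 CPM in the control and 350 against 218 CPM in the fibrosis library. The interleukin 4 receptor gene Il4ra differed by 1.41 and 0.41.

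Retnla was concentrated in a minority of members. In the fibrosis library 124 of 587 high cells, 21.1% (17.9 to 24.7%), had 10 or more Retnla UMIs, against 44 of 892 low cells (4.93%). In the control library 0 of 92 high cells did, which allows up to 3.26%, and 2 of 815 low cells. None of 391 fibrosis B cells did, and the most in a B cell was 5. The 124 cells held 95.6% of the Retnla UMIs of fibrosis high cells, up to 1369 in 1 cell, while the median high cell had 1. This split was also chosen after values had been seen, and the 124 cells were somewhat deeper, with a median of 7202 against 5795 UMIs in the other 463. Club cells of the fibrosis library held 18677 CPM of Retnla, and the club gene Scgb1a1, which the rule caps, stood at 2924 CPM in Retnla-rich and 2914 CPM in other high cells. Sftpc stood at 180378 and 189637 CPM.

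The Retnla-rich members differed in further genes. Of 8606 genes with at least 20 UMIs in fibrosis high cells, 189 were 2-fold higher and 287 lower in the 124 cells than in the others. Fxyd4, which encodes a regulator of the sodium pump, stood at 207 CPM in the 124 cells and 3.79 CPM in the 463 others. Slc26a4, the anion exchanger pendrin, stood at 387 against 66.5 CPM, and Chia1 at 909 against 166 CPM. Corin, a membrane serine protease, stood at 41.0 against 1.38 CPM and Col14a1, a fibril-associated collagen, at 30.5 against 0.345 CPM (29 UMIs against 1), log2 5.91 (3.87 to 11.82). Lcn2 stood at 4081 against 3379 CPM, Il33 at 971 against 679 CPM and Lrg1 at 1230 against 1053 CPM. Gzma, one of the haematopoietic markers, and Fcer2a were higher too, at 33.6 against 5.51 and 29.4 against 7.93 CPM. They were not compared in low cells. Fgg, at 26.3 and 28.3 CPM, and Ly6i, at 84.1 and 111 CPM, did not follow Retnla. Low cells showed the same companions when split in the same way, 44 against 848 cells: Fxyd4 at 140 against 4.81 CPM, Slc26a4 at 411 against 31.7 CPM, Chia1 at 897 against 177 CPM and Corin at 39.6 against 0.437 CPM (11 UMIs against 2), log2 6.24 (4.31 to 9.72). Fxyd4, Slc26a4, Chia1 and Corin were therefore higher in Retnla-rich than in other AT2 cells on either side of the Lcn2 and Il33 cut. The Retnla-rich cells were more frequent above it.

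Between the libraries, 8986 genes had at least 20 UMIs over the high cells, of which 568 were 2-fold higher in the fibrosis library (6.32%) and 230 lower (2.56%). A gene could pass this filter through its fibrosis counts alone, because those cells held 3852840 UMIs against 657075 in the control library. The filter therefore admits more genes that are higher in fibrosis, and these counts do not give the balance of directions. In low cells the same genes gave 156 higher (1.74%) and 38 lower (0.423%). The control high cells held few counts, and with at least 100 UMIs per gene 77 genes were higher and 21 lower. After the median ratio of the other cell classes was taken off each gene, 423 genes were higher and 544 lower. Those classes were immune and endothelial cells, with no epithelial class among them. The higher minimum and the subtraction each count only part of the 8986 genes, so their counts are not shares of that number. Many leading genes had a like ratio in low cells and at the median of the other classes. Gm10263 differed by -2.06 in high cells, -2.03 in low cells and -2.07 at the median of other classes, Rps27rt by -1.56, -1.66 and -1.71, and Wdr89 by -1.60, -1.75 and -1.82. Gm26917, Gm26870, Nme2, Hist1h2ap, AY036118 and Rnaset2a also differed in the same direction at that median. Several of these have near-identical copies or overlapping genes, so their counts are uncertain.

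Retnla led the genes that were higher in fibrosis, by 6.23 (5.77 to 6.77) in high cells and 5.61 in low cells, and the other classes had a median of 5.14. Slc26a4 went from 12.2 CPM (8 UMIs) in control to 146 CPM (561 UMIs) in fibrosis high cells, log2 3.49 (2.59 to 4.80), and from 7.14 to 53.4 CPM in low cells. It was found in 5 of 92 and 218 of 587 high cells, and B cells held 0 and 0.85 CPM. Fxyd4 had 0 UMIs in control and 208 UMIs in 60 fibrosis high cells, at least 11.8-fold higher, while the median of the other classes was -0.70. Cxcl5 had 0 UMIs in control high cells and 91 UMIs in 20 fibrosis high cells, at least 5.17-fold higher, and low cells had 0 and 3. Of its 20 cells 11 held 3 or more UMIs, and no low cell did. Ccl17, a ligand of the receptor CCR4, had 0 and 87 UMIs, but 79 of the 87 lay in 1 cell. The median of the other classes was 5.52. Chil3, a chitinase-like protein of alveolar macrophages, differed by 2.56 in high and 2.78 in low cells, and its level was lower in high than in low cells, at 220 against 387 CPM in the fibrosis library.

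Among the 12 leading genes lower in fibrosis high cells were genes of neutrophils: S100a8 by -1.60, S100a9 by -1.50, Retnlg by -1.72, Stfa2l1 by -2.55 and Gm5483 by -3.37. Gda and Wfdc17 stood lower by -2.55 and -1.65. Without the neutrophil-rich cells the log2 ratios were -0.58 for S100a8, -0.61 for S100a9, -0.47 for Retnlg, -1.01 for Stfa2l1, -2.11 for Gm5483, -1.53 for Gda and -0.29 for Wfdc17, and Stfa2l1, Gm5483 and Gda then rested on 1, 2 and 5 UMIs in control high cells. Over all genes 220 were 2-fold lower without those cells, against 230 with them. With the top 6% of doublet scores left out S100a8 differed by 0.12, S100a9 by 0.29, Retnlg by 0.07 and Wfdc17 by 0.23. Cst8, which encodes a cystatin, was lower without that pattern, at 180 CPM in control and 50.9 CPM in fibrosis high cells, log2 -1.82 (-2.16 to -1.48), and by -1.12 in low cells.

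**Figure D5:**
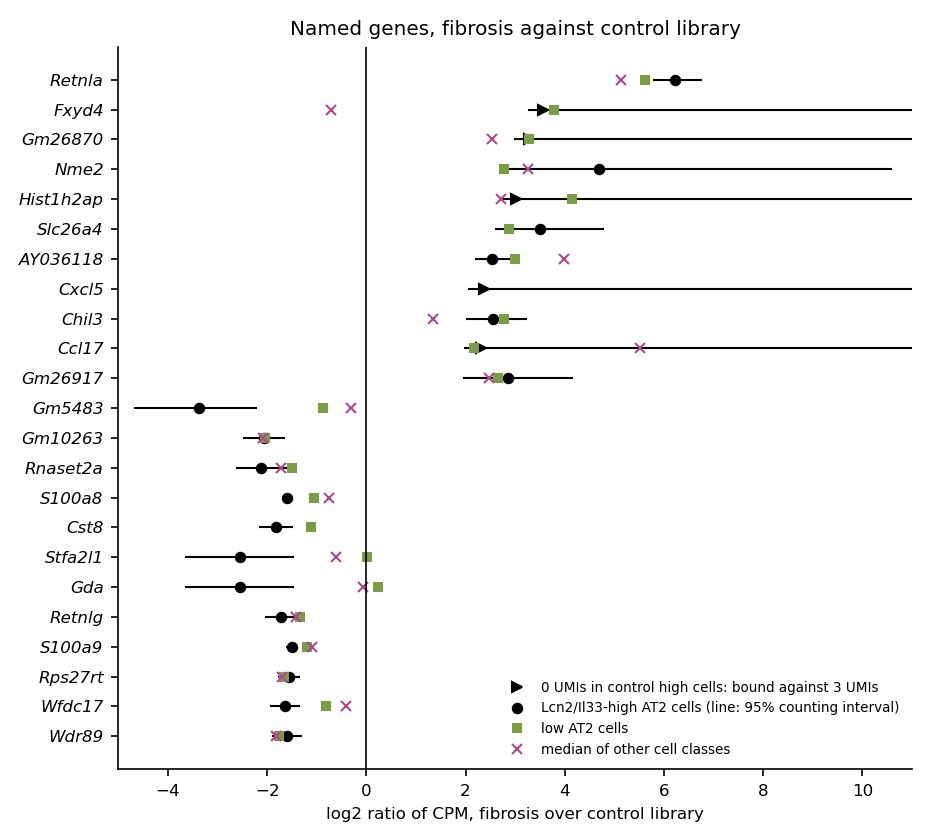
Log2 ratio of CPM, fibrosis over control library (horizontal axis), for leading genes in each direction (vertical axis) in high cells with their 95% counting interval, in low cells (squares) and at the median of the other cell classes (crosses). Slc26a4, Fxyd4 and Cxcl5 lie to the right, and the cross of Fxyd4 lies on the other side of equality. A gene without a cross had too few UMIs in the other classes for a median, so it cannot be compared with them. Gm10263, Rps27rt and Wdr89 lie where their crosses lie.

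Between the high cells of the 2 libraries, acute phase genes went both ways. Of 14 measured genes 1 was past 2-fold higher in fibrosis and 3 past 2-fold lower, against 6.32% and 2.56% of all genes. Without the neutrophil-rich cells 2 were past 2-fold higher and 1 past 2-fold lower. Lrg1, C3, Slpi and Pigr had intervals above equality, and S100a8, S100a9, Itih4 and Lyz1 below it. The median was 0.02, beside 0.05 over all genes, and its alternatives ran from -0.33 to 0.60. Lrg1 differed by 0.13 (0.01 to 0.25), Hp by 0.02 and Lbp by -0.03, and Slpi by 0.65. C3, the central complement component, stood at 160 CPM in fibrosis and 86.7 CPM in control high cells, a log2 ratio of 0.88. The median of the other classes was 1.27. In low cells the median was 0.28. The NF-kB and STAT3 list had a median of 0.62 over 15 genes. A gene could pass the filter through its fibrosis counts alone, so this median only describes the genes that passed. Cd14 differed by 1.24 and Nfkbia, the NF-kB inhibitor, by 1.04, while the interval of Nfkb2, 1.47 (-0.18 to 4.86, from 2 UMIs in control cells), included equality. Icam1, an adhesion molecule for leukocytes, stood at 198 against 126 CPM. Genes of antigen presentation had a median of 0.35, none of 14 was 2-fold higher, and Cd74 stood at 3057 CPM in control and 4052 CPM in fibrosis high cells and B2m at 475 and 715 CPM. Taken relative to the other classes this median was -0.12. The surfactant list had a median of -0.06 and Sftpd differed by 0.19, and the lipid list had -0.02. The interferon list had -0.51, with 0.20 at a cut of 0.1%.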

How the data were processed

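The deposited values were raw UMI counts per gene and cell, as whole numbers, for 27998 genes in each library. The authors made these counts with Cell Ranger 1.3 after bcl2fastq, on mm10, per the submitters' processing notes. Of the gene identifiers, 27645 (98.7%) occur in GENCODE M21, which gave positions on GRCm38.

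Cells were gated by the rule given in the report, and UMIs were summed over the high and over the low cells of each library and scaled to CPM. A log2 ratio had 0.5 UMI added to each sum. Its 95% interval is exact and conditional (binomial), and covers counting error only. Levels carry exact Poisson and shares exact Clopper-Pearson 95% intervals. A gene was measured with at least 20 UMIs (in each library for high against low cells, over both for fibrosis against control) and called at 2-fold. With 1 library per group no test between groups was possible. A sum of 0 was given an upper limit of 3 UMIs over the group, and a fold against it is a lower bound. Scripts were tested on simulated counts. Named genes were those 12 in each direction with the ratio nearest to 0 of both libraries farthest from 0 (high against low), or the interval bound nearest to 0 farthest from 0 (fibrosis against control), and the largest or best counted members of each list; an item among them is not reported here. Comparison classes (B cell, neutrophil, club and others) were gated from markers. The median of the other classes used those with at least 50 cells in each library. These were B cells, T cells, alveolar macrophages, endothelial cells, classical monocytes and neutrophils. Club, ciliated and AT1 cells, with 29, 47 and 30 cells in the fibrosis library, were too few, so no epithelial class entered it. It was given where at least 3 classes held 5 or more UMIs of the gene.

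The members, the lists and the gates were chosen with earlier results of these data known. Alternatives changed the cut, the gate, the depth, the scaling, the count minimum, the doublet handling and the splitting gene. Computations used Python 3.11.15, numpy 2.4.6, scipy 1.17.1, pandas 2.3.3, scanpy 1.11.5 and matplotlib 3.10.9.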

Additional observations from a re-analysis of the deposited data

Results flagged for a closer look

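Opposite directions in the groups compared were seen for 3 list members, and none of these differences was itself tested, since each group is 1 library. Chia1, the acidic chitinase, had a log2 ratio of high over low cells of -0.46 (control) and 0.68 (fibrosis). Itih4 had a log2 ratio of fibrosis over control of -0.28 in high cells and 0.51 in low cells. Nupr1, a stress-response nuclear protein, had -0.081 in low and 0.19 in high cells for the same ratio.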

How the results depend on the processing

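No paired analysis was possible because the control and the fibrosis library share only replicate number 1. Main counts were 20 genes higher and 22 lower in high cells of both libraries, and 568 higher and 230 lower in fibrosis high cells; main shares were 10.1% and 39.7%. The causes of the changes below were not tested unless the alternative's own construction gives them. At a cut of 0.1% 13 genes were higher in both, the shares were 38.0% and 68.8%, and the interferon list had medians of -0.031 (control, high over low) and 0.20 (fibrosis over control). At 0.4%, which left 15 control high cells, 42 genes were lower in both and 442 lower in fibrosis, and the shares were 1.65% and 15.8%, a difference of 14.1 points. There, the fibrosis over control medians were 0.52 for interferon and -0.26 for cell cycle genes, and single ratios were Ccl17 -0.22, S100a8 1.94, Stfa2l1 0.41, Retnlg 3.11, S100a9 1.67 and Wfdc17 2.98. High over low at that cut gave Retnlg -2.52, Csf3r -0.80, Pigr -0.30, S100a8 -1.69 and S100a9 -1.54 in control and Gm17541 0.0097 in fibrosis. Thinned to 2000 UMIs, 10 genes were higher and 14 lower in both, and cell cycle genes had -0.26 between libraries; thinned before the rule, the shares were 16.4% and 47.5%. With at least 5 UMIs the 4 counts were 71, 96, 1192 and 676, and with at least 100 they were 6, 1, 77 and 21. The minimum also sets how many genes are counted.

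Leaving out cells with 3 or more UMIs of other lineages gave 11 higher genes; Retnlg was -0.46, S100a8 -0.44 and S100a9 -0.36 in control, S100a8 -0.092 and Igfbp2 0.78 in fibrosis, and Retnlg 0.023 between libraries. Without the top 6% of scrublet scores the ratios between libraries were S100a8 0.12, Stfa2l1 0.69, Retnlg 0.067, S100a9 0.29 and Wfdc17 0.23. Split by Lcn2 alone, 11 genes were higher and 34 lower. Split by Il33 alone, high over low was Ly6i -0.20, Retnlg -1.57, Dmkn -0.095, Csf3r -0.15, Pigr -0.20, S100a8 -1.62, S100a9 -1.43 and Cxcr2 -3.60 in control and Ly6i -0.64, Cyr61 0.094 and Gorasp1 0.42 in fibrosis. Against low cells under 0.05%, 48 genes were lower. Minus the other classes, 423 genes were higher and 544 lower, counted only where those classes gave a median. Fibrosis over control was then -0.62 for the type 2 list, -0.76 for chemokines, -0.12 for antigen presentation and -0.51 for matrix genes. Single ratios were AY036118 -1.46, Ccl17 -0.62, Gm10263 0.013, Rps27rt 0.14 and Wdr89 0.21. The next pair of alternatives, and Fgg without its richest cell, were chosen after seeing the data. Without cells with 10 or more neutrophil UMIs 12 genes were higher; Retnlg was -0.39, S100a8 -0.15 and S100a9 -0.27 in control, and S100a8 -0.087 and S100a9 -0.020 in fibrosis. Without cells with 20 or more AT1 UMIs the AT1 list had 0.0026 in control and Igfbp2 0.39 in fibrosis. Scaling by the median ratio gave 24, 15, 519 and 269, and scaling without the rule genes and the 50 largest gave 500 and 286 between libraries. The low counts of the 92 control high cells limit what single genes show there.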

Other observations

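Gene families outside the lists, chosen after values had been seen, also set high cells apart from low cells. Of 81 measured genes of cytosolic ribosomal proteins, 74 were lower in high cells with intervals clear of equality in both libraries, against 2.51% of all genes, with median log2 ratios of -0.20 (control) and -0.22 (fibrosis). Together they took 13.2% of the UMIs of high and 15.3% of low cells in the control library and 14.1% and 16.5% in the fibrosis library, and the median cell showed the same order, at 12.9% against 15.5% and 14.0% against 17.5%. Of 41 measured proteasome subunit genes, 8 were higher in both, against 1.65% of all genes, with medians of 0.35 and 0.19. Of 36 subunit genes of respiratory complex I, 6 were higher in both, with medians of 0.10 and 0.18. Scaled by the median ratio, the ribosomal medians were -0.15 and -0.13 and the proteasome medians 0.40 and 0.28, so the directions were kept.

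A few members held most of some transcripts. In the fibrosis library 24 high cells had 2 or more Fgg UMIs against 4 low cells, 66 had 3 or more Slc26a4 UMIs against 19, and 51 had 3 or more Ly6i UMIs against 13. Lrg1 was spread wider, with 10 or more UMIs in 134 of 587 fibrosis high cells (22.8%) and 46 of 892 low cells (5.16%), and in 23 of 92 control high cells (25%) and 19 of 815 low cells (2.33%).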
